A study of Rattus norvegicus with 120 samples.

Results

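The animals with a low and a high value of one probe set for Cdh22 were compared over the eye transcriptome of F2 rats. The study measured 120 male F2 rats from an intercross of the inbred strains SR/JrHsd and SHRSP at 12 weeks of age, 1 Affymetrix array per animal, with RNA from both eyes of each animal pooled. All animals share that cross, sex and age, and the labels name no treatment and no parental control. The sample titles carry an S code (10 codes of 11 to 13 animals each) and an L code (22 codes of 2 to 11 animals each), whose meaning the labels do not give. The animals were chosen by the values of 1 of the 2 probe sets that measure Cdh22: the mean of each S code was subtracted from the deposited log2 value and the overall mean was added back. Animals below 5.6 formed the low class (28 of 120), animals above 7.3 the high class (59 of 120), and the remaining 33 the middle class.

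Cdh22 encodes cadherin-22, a calcium-dependent adhesion protein of the cell surface that is best known from the brain. Cadherins bind their partner on a neighbouring cell through repeated extracellular domains and are tied to the actin cytoskeleton inside the cell through catenins. In an F2 intercross, stretches of each chromosome come from either grandparental strain, so that genes lying close to each other on a chromosome are inherited together, and a variant can change the transcript of a gene beside it or of a gene elsewhere.

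The Cdh22 values chose the classes and are given as a description. With S code means removed they were 4.89 ± 0.52 (SD) in the 28 low animals, from 3.93 to 5.59 with a median of 5.05. They were 6.33 ± 0.45 in the 33 middle animals, from 5.70 to 7.25 with a median of 6.28, and 8.45 ± 0.55 in the 59 high animals, from 7.31 to 9.93 with a median of 8.41. The highest low animal lay at 5.589 and the lowest middle animal at 5.702, while the highest middle animal lay at 7.246 and the lowest high animal at 7.309. Each limit thus fell between neighbours that differed by less than the SD of either class beside it.

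As deposited, the same probe set showed 2 levels rather than 3. The lower level held 59 animals at 5.45 ± 0.82, from 3.17 to 7.36, and the upper level held 61 animals at 8.56 ± 0.29, from 7.98 to 9.29. A gap of 0.618 log2 units separated them, the widest once the single lowest animal, at 3.17, is set aside. All 28 low animals were in the lower level and all 59 high animals in the upper one. The middle class was made of 31 animals of the lower level and 2 of the upper level. S codes 1, 4 and 8 held 20 of the 33 middle animals, and 24 of their 35 animals were in the lower level. In S codes 4 and 8 alike, 8 of 12 animals were in the lower level, and the means of all 12 were 6.92 and 5.99. In S code 3, 3 of 12 were in the lower level and the mean was 7.96. The lower-level animals alone had means of 6.02 in S code 4, 4.75 in S code 8 and 6.37 in S code 3. The class of an animal therefore moved with the mean of its S code as well as with its own value. That mean rests on both the number and the values of the lower-level animals.

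**Figure D1:**
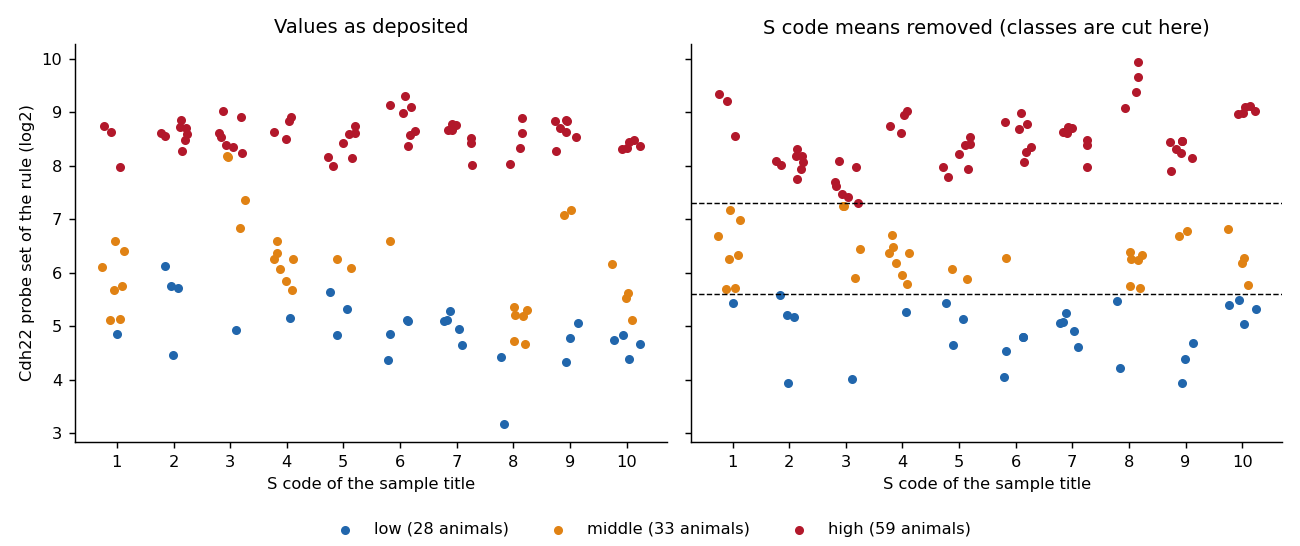
Cdh22 values (log2) of the 120 animals by S code, as deposited (left) and with S code means removed (right), 1 point per animal, coloured by class. Dashed lines mark the limits 5.6 and 7.3. As deposited, 59 animals lie at or below 7.36 and 61 at or above 7.98; on the right the orange middle animals of S codes 1, 4 and 8 fall between the limits.

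Across the other probe sets, high and low animals differed in many transcripts by small amounts. In limma with the S code as a covariate, 598 of 23325 tested probe sets (2.56%) had an adjusted p under 0.05, by the Benjamini-Hochberg method. Of these, 409 were higher (1.75%) and 189 lower (0.81%) in high animals. The median absolute difference of the 598 was 0.211 log2 units, a fold of 1.16, and 5100 probe sets had an unadjusted p under 0.05 (21.9%). Counted with 1 probe set per gene, 184 of 12283 genes passed (1.5%), of which 83 were higher (0.676%) and the rest lower (0.822%). No level in this RNA can tell a different number of cells of a type from a different amount of RNA per cell.

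The count of 598 moved with RNA quality and with single S codes. The array carries probe sets from the 3′ and 5′ ends of the beta-actin and GAPDH transcripts, and a larger 3′ minus 5′ difference goes with shorter or less completely copied RNA. With S code means removed, the actin difference was 1.27 ± 0.19 in low, 1.16 ± 0.13 in middle and 1.17 ± 0.12 in high animals. High minus low came to -0.103 (permutation test, 100000 resamples, two-sided, adjusted p = 0.0125). The GAPDH difference was 0.249 ± 0.132 in low, 0.170 ± 0.082 in middle and 0.178 ± 0.099 in high animals, and its permutation test gave the same adjusted p of 0.0125. The interquartile range of the array and its median correlation with other arrays did not pass (permutation tests, adjusted p = 0.265 and 0.511). With S code means kept, the differences of high minus low were -0.104 for actin and -0.067 for GAPDH, and neither passed (permutation tests, adjusted p = 0.118 for both). With both differences as covariates in limma, 2 of 23325 probe sets passed (0.00857%; 1611 at an unadjusted p under 0.05). Without the 12 animals of S code 9 no probe set passed in limma (3642 at an unadjusted p under 0.05), and without S code 5, 8 or 3 the counts were 3, 87 and 143. Without S code 4 the count lay between the last pair. The count without S code 1 was 1274 and without S code 7 it was 1186. It was 1427 without the 3 rescanned arrays (0 low, 1 middle and 2 high animals), and 2312 without animals 63 (middle) and 15 (high), whose arrays stood apart. The part of RNA quality in the 598 calls was not tested beyond this fit.

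**Figure D2:**
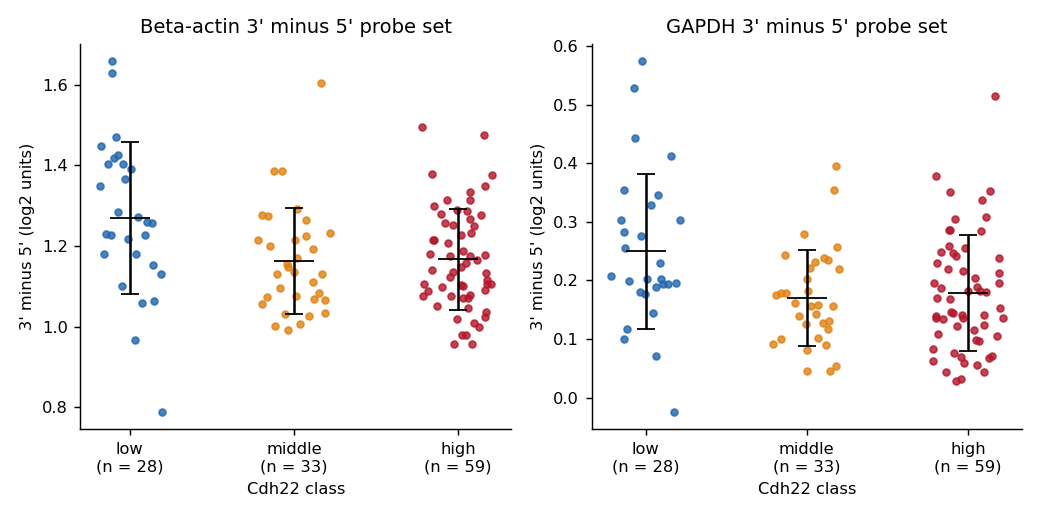
The 3′ minus 5′ differences (log2 units, S code means removed) of beta-actin (left) and GAPDH (right) in the 28 low, 33 middle and 59 high animals; points are animals, bars the mean ± SD. Low animals have the highest means, 1.27 for actin and 0.249 for GAPDH, and the classes overlap over most of their range.

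Serpina1, on chromosome 6, had the smallest p among named genes. It encodes alpha-1-antitrypsin, a secreted inhibitor of neutrophil elastase. Its S-adjusted log2 level ran from 4.05 to 5.86 in low animals (median 4.91), from 4.40 to 6.11 in middle animals (median 4.92) and from 4.56 to 6.32 in high animals (median 5.34). The ranges overlapped widely, and the middle animals had nearly the median of the low ones. Serpina1 was 0.46 ± 0.09 (SE) higher in high than in low animals, a fold of 1.37 (limma, adjusted p = 0.0139). It was 1 of the 2 probe sets that passed with the 3′ minus 5′ covariates, at a difference of 0.47 and an adjusted p of 0.045 in limma. Without S code 9 the difference was 0.44 and the adjusted p in limma 0.092.

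Traf3, an adaptor of tumour necrosis factor receptors and of innate immune signalling, also lies on chromosome 6 and fell. Its level ran from 7.13 to 7.83 in low animals (median 7.50), from 6.90 to 7.68 in middle animals (median 7.36) and from 7.01 to 7.73 in high animals (median 7.28). The ranges again overlapped. The difference of high minus low was -0.18 ± 0.04 (SE; limma, adjusted p = 0.0139), and -0.11 with the 3′ minus 5′ covariates (limma, adjusted p = 0.459). Without S code 5 or 9 its adjusted p in limma was 0.069 or 0.092.

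Probe set 1396372_at, which has no gene name in the annotation used, had the smallest p of all. Its level ran from 5.44 to 6.48 in low animals (median 6.05), from 5.50 to 7.09 in middle animals (median 6.39) and from 5.63 to 6.95 in high animals (median 6.39). Here the middle animals shared the median of the high ones. The difference of high minus low was 0.39 ± 0.07 (SE; limma, adjusted p = 0.000655), it was 0.37 with the 3′ minus 5′ covariates (limma, adjusted p = 0.00846), and without S code 9 the adjusted p in limma was 0.07.

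Of the 25 genes of smallest p, 18 were higher and 7 lower in high animals, and 2 lay on chromosome 6. Pak3, a p21-activated kinase of neurons, had a mean of 5.05 ± 0.38 in low, 5.43 ± 0.44 in middle and 5.53 ± 0.48 in high animals, a difference of 0.50 ± 0.11 (SE). Arhgap32 had 6.67 ± 0.38, 7.13 ± 0.32 and 7.05 ± 0.39 in that order of classes. Kalrn, which shapes dendritic spines, had 4.81 ± 0.18, 5.01 ± 0.16 and 4.98 ± 0.15. All 3 rose in high against low animals (limma, adjusted p between 0.0139 and 0.0166).

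Other genes among the 25 rose as well. Chd7, a chromatin remodeller, was 0.45 ± 0.10 (SE) higher in high animals. Hdac4, a histone deacetylase, was 0.28 ± 0.07 higher. Kansl2, a subunit of a histone acetyltransferase complex, was 0.34 ± 0.08 higher. Rbfox2, a splicing regulator, was 0.48 ± 0.11 higher. Wtap, a subunit of the enzyme that methylates adenosines of mRNA, was 0.18 ± 0.04 higher. Eef2k, the kinase of elongation factor 2, was 0.31 ± 0.07 higher. These 6 passed at adjusted p values from 0.0166 to 0.0193 in limma, and with the 3′ minus 5′ covariates their adjusted p values in limma ran from 0.386 to 0.527. Strbp, Dennd1b, Camk2n1 (an inhibitor of calcium/calmodulin kinase II), Kpna1 (an importin), Ctdsp1, Glg1, Nucks1 and Got2 (mitochondrial aspartate aminotransferase) also rose. Several of these signals were weak. The low-class means of Eef2k (4.30), Got2 (4.31), Strbp (4.37), Kansl2 (4.44) and Dennd1b (4.52) lay close to the filter value of 4.28. The genes that fell beside Traf3 were Trim65, Hint3, Shld2, Nemp2, Gli4 and Nmrk1, with differences from -0.12 for Shld2 to -0.24 for Nmrk1. For Dennd1b, Ctdsp1, Nucks1 and Kansl2 the probe set of highest mean signal of the same gene had the opposite sign, so the probe sets of these genes disagree. With the probe set of highest mean, 7 more of the 25 genes gave a weaker result and 14 the same result.

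The largest rises among called genes were in Slc6a6, Ddx6, Rbm5, Strbp and Sp1. Slc6a6, the taurine transporter that supplies the retina, ran from 4.43 to 8.26 in low animals (median 6.66) and from 4.05 to 9.68 in high animals (median 7.295), with the high range enclosing the low one. Its difference was 0.88 ± 0.23 (SE; limma, adjusted p = 0.0263). Ddx6, an RNA helicase of mRNA storage granules, rose by 0.84 ± 0.22. Rbm5, a splicing factor, rose by 0.82 ± 0.20. Strbp, an RNA-binding protein, rose by 0.79 ± 0.18 and Sp1, a widely expressed transcription factor, by 0.71 ± 0.18. Fcgbp, a protein of mucus, had the largest fall: it had 9.56 ± 0.27 in low, 9.27 ± 0.41 in middle and 9.23 ± 0.38 in high animals (difference -0.34 ± 0.09 SE; limma, adjusted p = 0.0244). Zfp182, Txlnb, Slc39a8 (a zinc and manganese importer) and Nmrk1 (a kinase of NAD synthesis) followed, with differences between -0.24 and -0.26. None of these 10 kept an adjusted p under 0.05 in limma with the 3′ minus 5′ covariates, and the adjusted p of Slc6a6 was then 0.633.

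The middle class did not sit between the others. Middle animals differed from low animals in 7061 of 23325 probe sets (30.3%) and high animals from middle animals in 6 (0.0257%), although the Cdh22 values of the middle class were closer to the low class. In 526 of the 598 probe sets called between high and low animals the middle mean lay beyond the high mean, in 70 it lay between low and high, and in 2 it lay beyond low. These contrasts share animals. Rbm5 shows the pattern: its mean was 7.74 ± 0.99 in low, 8.83 ± 0.69 in middle and 8.52 ± 0.87 in high animals. Within the lower level of deposited values alone, 31 middle against 28 low animals differed in 4990 probe sets (21.4%), in a comparison added after seeing the data. The actin 3′ minus 5′ difference of those 31 animals was 1.17 ± 0.13 against 1.27 ± 0.19 in the 28 low animals (permutation test, adjusted p = 0.0248). Middle minus low was -0.076 for GAPDH and -0.046 for the interquartile range of the array (permutation tests, adjusted p = 0.0248 for both). The median correlation with other arrays was 0.9887 in the 31 and 0.9875 in the 28 animals (permutation test, adjusted p = 0.0458). With the actin and GAPDH differences as covariates, middle against low gave 374 calls.

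The 61 upper-level animals were next compared with the 59 lower-level animals, a split chosen after seeing the data that leaves no animal out. Serpina1 was the only probe set that passed in limma with the S code as a covariate, 1 of 23325 (0.00429%), and 897 had an unadjusted p under 0.05 (3.85%). Its mean was 4.98 ± 0.43 in the lower and 5.35 ± 0.36 in the upper level, a fitted difference of 0.41 ± 0.08 (SE; limma, adjusted p = 0.0135). With each S code left out in turn the difference stayed between 0.38 and 0.47. The adjusted p of Serpina1 in limma was over 0.05 without S codes 1 (0.088), 2 (0.084), 6 (0.16), 9 (0.344) or 10 (0.112). The actin 3′ minus 5′ difference was 1.22 ± 0.17 in the lower and 1.16 ± 0.12 in the upper level (permutation test, adjusted p = 0.168). Of the genes called between high and low animals, Pak3 had a difference of 0.28 ± 0.09 between levels and Rbm5 of 0.19 ± 0.18, both with an adjusted p of 0.968 in limma.

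Cdh22 itself lies on chromosome 3, and neither its other probe set nor its neighbours passed. Probe set 1388045_a_at (Cdh22) ran from 4.91 to 5.803 in low animals (median 5.57), from 5.301 to 6.23 in middle animals (median 5.59) and from 5.10 to 5.84 in high animals (median 5.53). The classes overlapped almost entirely, and high minus low was -0.04 ± 0.04 (SE; limma, adjusted p = 0.561). The signal of this probe set was weak, with class medians below the median of every array (5.78 to 5.96). Its Pearson r with the probe set that chose the classes was -0.09 over the 120 animals, as a description. The ends of the transcript that the probe sets measure are not given in the sources used here.

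Of the 10 measured genes nearest to Cdh22 on each side, 0 of 20 passed, against 1.5% of all genes. An unadjusted limma p under 0.05 was found for 4 of the 20 (20%, against 19.2% of all genes). The nearest were Cd40, a receptor of antigen-presenting cells (0.02 ± 0.04 SE), and Slc35c2, a sugar-nucleotide transporter family member (-0.04 ± 0.05). The largest differences of the 20 were in Zmynd8, a chromatin reader (0.17 ± 0.10; limma, adjusted p = 0.285), and Slc13a3, a dicarboxylate transporter (-0.12 ± 0.05; adjusted p = 0.127). Slc12a5, the neuronal potassium-chloride cotransporter, had -0.09 ± 0.03 (adjusted p = 0.111). With 50 genes on each side, 0 of 100 passed in limma and 12 had an unadjusted p under 0.05 (12%, against 19.2% of all genes). At a share of 1.5%, 0 calls among 20 or 100 genes cannot be set apart from the share over all genes. Between the deposited levels, 0 of these 100 had an unadjusted p under 0.05 in limma, against 3.81% of all genes.

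Chromosome 6 held the largest share of called genes. Between high and low animals 19 of its 546 genes passed (3.48%), against 165 of 11735 genes elsewhere (1.41%), and the share over single chromosomes ran from 0.61% on chromosome 11 to 3.48% on chromosome 6. Chromosome 3 had 14 of 935 (1.497%). Between upper and lower level, 45 of 546 genes of chromosome 6 had an unadjusted p under 0.05 (8.24%), against 3.60% elsewhere and at most 5.67% on any other chromosome. At an unadjusted p under 0.001 there were 19 genes, 11 of them on chromosome 6. These shares are descriptions, since neighbouring genes share inherited stretches and are not independent.

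**Figure D3:**
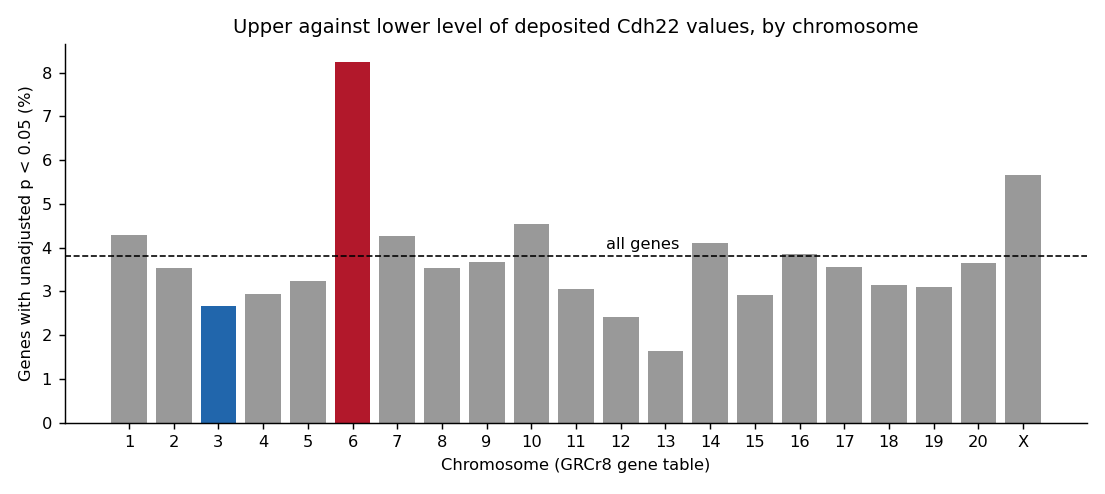
Share of measured genes with an unadjusted limma p under 0.05 between the 61 upper-level and 59 lower-level animals, by chromosome; the dashed line is the share over all genes, 3.81%. Chromosome 6 (red) stands at 8.24% and chromosome 3 (blue), which carries Cdh22, at 2.67%.

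The genes of chromosome 6 with small p lay in its distal part in gene order. With the 546 genes cut into 10 stretches, the last 3 had 18.5%, 12.7% and 25.5% of genes with an unadjusted p under 0.05 between levels, and the first 7 had between 0% and 5.56%. Of the 100 genes around Serpina1, 50 on each side, 20 had such a p (20%). Serpina1 is at place 459 of 546. On chromosome 3 the stretch that holds Cdh22 had 0 of 93.

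**Figure D4:**
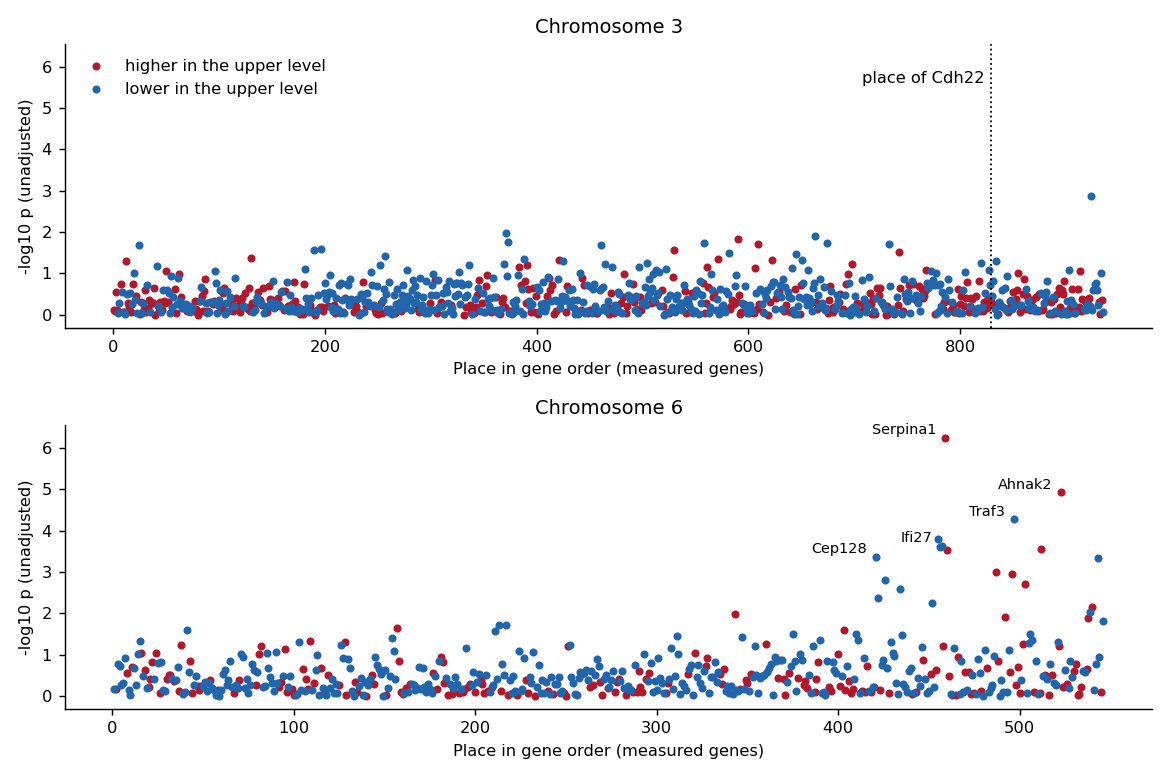
Unadjusted limma p (as -log10) of each measured gene between upper and lower level, against its place in gene order on chromosome 3 (top, dotted line at Cdh22) and chromosome 6 (bottom); red points are higher and blue points lower in the upper level. On chromosome 6 the high points lie from Cep128, place 421, onward, with Serpina1 highest; no such group lies at Cdh22.

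To take out broad variation among arrays, the first 5 principal components of the tested values were added as covariates, also after seeing the data. Between levels 12 probe sets then passed in limma (0.0514%), and by gene 8 of 12283 (0.0651%), all 8 on chromosome 6. They were Ddx24 (place 456), Ifi27 (457), Serpina1 (459), Traf3 (497), Mark3 (503), Rd3l (512), Ahnak2 (523) and Esyt2 (540). In the upper level 5 were higher (0.0407%) and 3 lower (0.0244%). The components come from the same arrays and can carry part of any class difference.

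Ahnak2, a large scaffold protein, ran from 7.72 to 8.40 in the lower level (median 8.06) and from 7.48 to 8.49 in the upper level (median 8.17). The levels overlapped, with the lowest single animal, number 63, in the upper level. The difference was 0.13 ± 0.03 (SE; limma, adjusted p = 0.093), and 0.13 ± 0.02 with the components (limma, adjusted p = 0.00115). Rd3l, a relative of the retinal guanylate cyclase regulator Rd3, ran from 7.14 to 7.92 in the lower level (median 7.40) and from 6.72 to 7.79 in the upper level (median 7.54). Its difference with the components was 0.13 ± 0.02 (limma, adjusted p = 0.00115). In both genes the middle class was at the low end: Ahnak2 had 8.07 ± 0.12 in low, 8.03 ± 0.16 in middle and 8.178 ± 0.13 in high animals. Animal 63 is part of that middle class and also had the lowest value of Rd3l, Traf3 and Mark3. Its array was rescanned and had a median correlation of 0.937 with the other arrays. The levels were not compared without that animal alone.

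Ifi27, an interferon-induced gene, ran from 10.11 to 11.71 in the lower level (median 10.71) and from 9.59 to 11.55 in the upper level (median 10.49). The upper level was the lower one here. The difference was -0.23 ± 0.06 (SE; limma, adjusted p = 0.56), and -0.26 ± 0.06 with the components (limma, adjusted p = 0.0255). Its neighbour in gene order, Ifi27l2b, is a related gene with a probe set of its own, and how far the probes of either also bind the other was not tested. The 13 tested genes of the interferon list held 0 with an unadjusted p under 0.05 between levels in limma. Ddx24, an RNA helicase of the nucleolus, had -0.09 ± 0.02, Traf3 -0.11 ± 0.02, Mark3, a kinase of microtubule-associated proteins, 0.08 ± 0.02, and Esyt2, a lipid-transfer tether of the plasma membrane, 0.09 ± 0.02 with the components (limma, adjusted p from 0.00184 to 0.044).

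**Figure D5:**
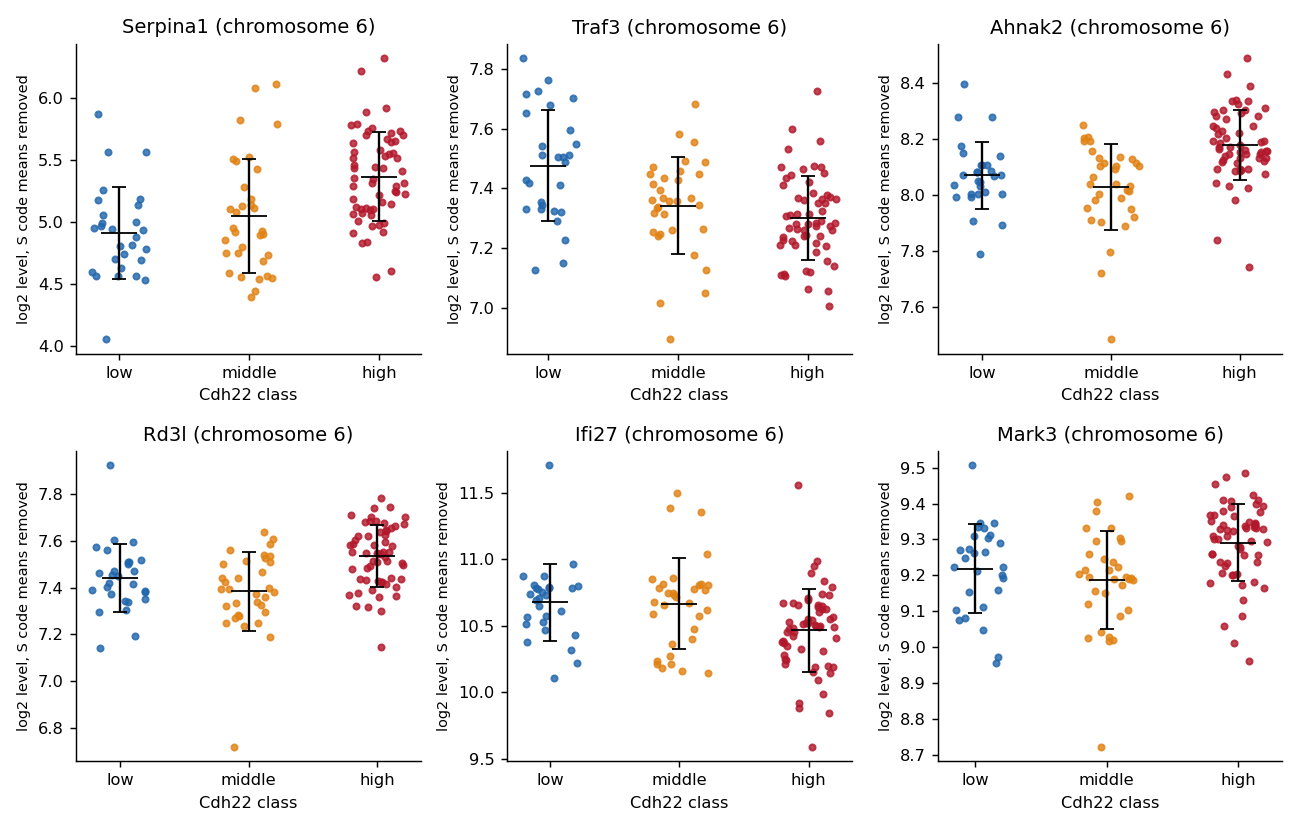
Log2 levels (S code means removed) of 6 genes of chromosome 6 in the 28 low, 33 middle and 59 high animals; points are animals, bars the mean ± SD. Serpina1, Ahnak2, Rd3l and Mark3 are highest in high animals and Traf3 and Ifi27 lowest, with the classes overlapping in each gene.

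Other genes in the same stretch, named after their values were seen, did not pass between levels. Serpina11, the serpin next to Serpina1, had 0.17 ± 0.05 (SE) between levels. Dio3, the deiodinase that inactivates thyroid hormone, had 0.13 ± 0.04. Cep128, a centriole protein, had -0.18 ± 0.05. Their adjusted p values in limma ran from 0.56 to 0.852. Apart from these genes, probe set 1395335_at has no gene name and so no known place in gene order. It passed between levels with the components and had the smallest p there, at -0.26 ± 0.02 (limma, adjusted p = 4.2e-14). Without them its difference was -0.21 ± 0.06 (limma, adjusted p = 0.852), with 8.45 ± 0.30 in low, 8.71 ± 0.29 in middle and 8.42 ± 0.30 in high animals.

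The promoters of Serpina1 and Ifi27 are shown because these genes lie 2 places apart in gene order and differed in opposite directions between the levels. Each is the 250 bases before the RefSeq start on GRCr8, read 5′ to 3′ on the gene's strand, at chr6:128653126-128653375 (minus strand) for Serpina1 and chr6:128355062-128355311 (plus strand) for Ifi27.
Serpina1: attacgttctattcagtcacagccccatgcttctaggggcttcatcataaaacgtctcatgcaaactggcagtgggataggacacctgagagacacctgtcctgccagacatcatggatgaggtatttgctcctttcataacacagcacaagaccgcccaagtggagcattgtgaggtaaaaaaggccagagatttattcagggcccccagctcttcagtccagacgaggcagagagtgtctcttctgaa
Ifi27: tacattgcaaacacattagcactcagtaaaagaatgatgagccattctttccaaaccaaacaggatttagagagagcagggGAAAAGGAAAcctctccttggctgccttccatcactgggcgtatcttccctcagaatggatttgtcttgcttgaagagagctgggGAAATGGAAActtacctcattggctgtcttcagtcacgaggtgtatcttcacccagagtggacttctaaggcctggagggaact
Capitals mark matches on either strand to TTTCNNTTTC, the core of the element that binds interferon-response factors. The motif is in 3.41% of 33469 promoters of this length. Ifi27 had 2 matches and Serpina1 had none, and neither had TATAAA, which 12.9% of the promoters hold. A match describes the letters and is not evidence of a bound site.

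Of the cadherin list, 11 of 22 genes were tested and 1 passed, Cdh13 (T-cadherin, anchored to the membrane by lipid), against 1.5% of all genes. Cdh13 ran from 5.82 to 6.92 in low animals (median 6.46) and from 5.897 to 7.31 in high animals (median 6.60), a difference of 0.21 ± 0.06 (SE; limma, adjusted p = 0.0429), or 0.10 ± 0.05 with the 3′ minus 5′ covariates (limma, adjusted p = 0.731). The median difference of the 11 cadherins was -0.03, against -0.02 over all genes. Cdh1 and Cdh3, the epithelial cadherins, had -0.07 ± 0.03 and -0.08 ± 0.04, and Cdh2, the neural cadherin, -0.02 ± 0.04. Of 18 tested catenin and junction genes 0 passed in limma, and 2 had an unadjusted p under 0.05. With lists this short, 1 call or none cannot be set apart from the share over all genes.

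The other 15 lists covered rod, cone, bipolar, ganglion, amacrine, Mueller glia, pigment cell, lens, cornea, muscle, gland, red cell and immune markers, interferon-induced genes and clock genes. Of their tested members 0 passed in limma, against 1.5% of all genes. In lists this short, 0 calls cannot be set apart from that share. The filter on low values removed 3 of 9 gland and 2 of 8 red cell genes with a probe set, 1 gene each of the bipolar, ganglion, amacrine and Mueller glia lists, and 0 of 16 rod, 0 of 10 cone, 0 of 17 lens, 0 of 16 cornea and 0 of 18 muscle genes. Over all 17 lists 223 of 284 members were tested and 1 passed, against 1.5% of all genes. Unadjusted p values under 0.05 between high and low animals came to 1 of 16 rod genes, 3 of 14 amacrine genes, 3 of 12 Mueller glia genes and 2 of 18 muscle genes, against 19.2% of all genes. The median differences of the lists ran from -0.05 for muscle to 0.03 for red cell genes.

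Over the 120 animals the genes most like the Cdh22 probe set, by Pearson r of S-adjusted values, were Serpina1 (0.41), Pak3, Lgals3, Rcor1 and Sh3gl1 (each 0.39). The most opposite were Traf3 (-0.46), Atp6v0a1 and Spata7 (both -0.38), and Tmem67 and Amacr (both -0.36). Serpina1, Rcor1, Traf3 and Spata7, 4 of the 10, lie on chromosome 6, with Rcor1 next to Traf3 in gene order. That chromosome holds 546 of the 12281 genes counted by chromosome. Serpina1 and Traf3 were also among the genes of smallest p, in classes cut from the same Cdh22 values. Neighbouring genes share inherited stretches, so the 4 are not independent observations. Lgals3 (galectin-3) had 11.28 ± 0.07 in low, 11.29 ± 0.08 in middle and 11.35 ± 0.09 in high animals. Spata7, a protein of the photoreceptor connecting cilium, had 8.27 ± 0.20, 8.09 ± 0.22 and 8.09 ± 0.18 in that order. These values share the arrays and the S code adjustment with the Cdh22 values and are a description.

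All 5 animals of L code 6 and all 3 of L code 12 were high, and both animals of L code 3 were low. The chi-square of class by L code gave p = 0.175 over all 3 classes and 120 animals, p = 0.0545 over the 87 low and high animals, and p = 0.122 for the deposited levels (permutation tests, 100000 resamples).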

How the data were processed

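Total RNA of both eyes of each animal was hybridised to 1 Affymetrix array, per the labels' protocols. The deposited values are log2 signals made by the authors with RMA, per the submitters' processing notes; its settings and version are not given in the sources used here. Depth has no meaning for arrays, and their number limits the precision. Array medians ran from 5.78 to 5.96. After removing 57 control probe sets and the Cdh22 probe set of the rule, 23325 of 31099 probe sets were left whose mean reached the lower quartile of all values (4.28). They were tested with limma 3.58.1 (R 4.3.3), S code as covariate and Benjamini-Hochberg adjustment. In counts by gene, lists and neighbours, a gene is represented by its probe set of highest mean. Among the genes of smallest p and of largest rise or fall, it is represented by its probe set of smallest p. Each animal has 1 array, and the fit treated animals as independent samples, although the labels do not say which animals share parents. With L code as a random block, the correlation within codes was 0.049 and 765 probe sets passed between high and low animals. Names come from the platform annotation (20826 probe sets with 1 symbol, 20764 matched in RefSeq by Entrez number, none with several); gene order, not coordinates, comes from RefSeq GRCr8, since the files name no build. Promoters come from RefSeq with that build. The fit was tested on simulated data: of 200 changed probe sets among 23325, 9% were recovered at a step of 0.5 residual SD and 63% at 1 SD, with 4 unchanged ones called. The simulated noise was independent between probe sets, and the middle class was set midway between low and high. The simulation therefore cannot show how many calls variation shared among probe sets gives in these data. Named were the other Cdh22 probe set, the 25 genes of smallest p, the 10 nearest genes on each side of Cdh22, every called list member, the 5 largest rises and falls, the 5 most and least correlated genes, and genes called between levels. Members, lists and tests were chosen with earlier results of these data known. Permutation tests and alternatives are described where used.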

Additional observations from a re-analysis of the deposited data

How the results depend on the processing

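The 598 calls became 325 with no S code covariate, 9 with classes cut from deposited values, 2581 with L code as a factor, 367 with low and high animals only, 5 with the Cdh22 value as a number, 3186 with low animals against all others, 3853 with limits 5.3 and 7.6, 339 with a filter at the median, 2 with 3′ minus 5′ covariates, 2 with 5 principal components, 1427 without rescanned arrays and 2312 without animals 63 and 15. Between levels of deposited values there was 1 call, 12 with 5 components, 4 with 3′ minus 5′ covariates, 1 with L code as a factor and 1 with no S code covariate, and there were 4990 within the lower level. Leaving out 1 S code gave 0 to 1274. The cause was not tested. The counts that follow are parts of such totals, so each goes with a different share over all probe sets. That share was 2.56% in the main fit and 21.4% within the lower level. For the 100 genes near Cdh22, 0 calls became 4 with L code as a factor, 3 with low animals against all others, 5 with limits 5.3 and 7.6, 1 without rescanned arrays, 2 without animals 63 and 15 and 7 within the lower level, and 0 to 1 with 1 S code left out. On chromosome 6, 19 called genes became 5 with no S code covariate, 2 with classes from deposited values, 89 with L code as a factor, 11 with low and high animals only, 2 with the Cdh22 value as a number, 86 with low animals against all others, 93 with limits 5.3 and 7.6, 10 with no filter, 12 with a filter at the median and with array weights, 1 with 3′ minus 5′ covariates and with 5 components, 44 without rescanned arrays, 66 without animals 63 and 15 and 128 within the lower level. Between levels it was 1, 8 with 5 components, 3 with 3′ minus 5′ covariates, 1 with L code as a factor and 1 with no S code covariate. Between high and low animals it was 0 to 35 with 1 S code left out. The 1 called list gene became 12 with L code as a factor, 13 with low animals against all others, 18 with limits 5.3 and 7.6, 6 without animals 63 and 15 and 33 within the lower level; 0 with no S code covariate, classes from deposited values, low and high animals only, the Cdh22 value as a number, 3′ minus 5′ covariates, 5 components, array weights and the 5 comparisons of levels; and 0 to 4 with 1 S code left out.

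Middle against low, 7061 calls became 2648 with no S code covariate, 243 with classes from deposited values, 3399 with limits 5.9 and 7.0, 374 with 3′ minus 5′ covariates, 0 with 5 components, 4447 with array weights, and 2795 to 7677 with 1 S code left out. High against middle, 6 calls became 0 with classes from deposited values, 10 with L code as a factor, 13 with L code as a random block, 3 with limits 5.3 and 7.6, 1 with limits 5.9 and 7.0, 16 with 3′ minus 5′ covariates, 2 without animals 63 and 15, 59 with array weights, and 0 to 56 with 1 S code left out. The other Cdh22 probe set turned to 0.0012 with classes from deposited values, 0.027 with L code as a factor and 0.021 between levels with L code as a factor, and ran from -0.063 to -0.016 with 1 S code left out. With S code means kept, the differences of actin and GAPDH were -0.104 and -0.067, no longer past the threshold (permutation tests, adjusted p = 0.118).

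Among named results, Cdh13 turned to -0.015 with 5 components and -0.0062 between levels with 3′ minus 5′ covariates, where Rbm5 turned to -0.010 and Sp1 to -0.0094. Within the lower level Ahnak2 turned to -0.061, Rd3l to -0.060, Esyt2 to -0.144, Ddx24 to 0.026, Ifi27 to 0.031, probe set 1395335_at to 0.46 and probe set 1396042_at to 0.0095. Esyt2 turned to -0.017 with low animals against all others and -0.0065 with limits 5.3 and 7.6. Probe set 1395335_at turned to 0.0094 with no S code covariate, 0.076 with low animals against all others, 0.032 with limits 5.3 and 7.6, and 0.0032, 0.045 and 0.010 without S codes 2, 7 and 10. The probe set of highest mean gave -0.046 for Dennd1b, -0.027 for Ctdsp1, -0.029 for Nucks1 and -0.031 for Kansl2. No paired analysis was possible because all animals are of 1 labelled group and carry unique numbers.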
